A study of Mus musculus with 6 samples.

Results

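The genes described are a chaperone gene, Bsg, and carriers that move glucose, lactate, pyruvate and ketone bodies across brain membranes. The carriers are Slc16a1, Slc16a3, Slc16a4 and Slc16a7 for monocarboxylates, and Slc2a1 and Slc2a3 for glucose. These genes were chosen by name, 7 of 18193 singly annotated genes. Every probe set annotated to exactly 1 of them was taken, which gave 14 of the 45037 probe sets fitted. Transcript levels were compared between whole brains of Foxf2 mutant mouse embryos and whole brains of wild-type (wt) embryos, all on a C57/bl6 background and all at stage E18.5 (a late embryonic day), with 3 arrays in each group. The Foxf2 product is a forkhead transcription factor that brain pericytes are known to express, and the labels do not describe the mutant allele or say whether an array held 1 embryo or several. Replicates are therefore separate samples by label, and p-values measure only the spread between these 6 samples.

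Neurons and glia take up glucose that has crossed the capillary wall, and before and shortly after birth the brain also burns ketone bodies and lactate. Carriers of the SLC2 family let glucose follow its gradient, and carriers of the SLC16 family move a monocarboxylate together with a proton. Slc16a1 encodes MCT1, which is abundant in the endothelium of developing brain capillaries, and basigin, the Bsg product, brings MCT1 and MCT4 to the cell surface. Whole-brain RNA does not show which cells hold a transcript, and fewer cells of a type cannot be told apart from less RNA per cell.

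The gene starts of the capillary carriers Slc16a1 and Slc2a1 are shown because these carriers share the endothelium and are set against each other below. Each run is the 250 bases before the annotated start in RefSeq, build GRCm38.p6, plus strand, 5′ to 3′, and 4 of the 7 genes were in that table. Capitals mark ACGTG read on either strand, a core found in hypoxia-response elements and E-boxes.
Slc16a1, chr3:104638414-104638663: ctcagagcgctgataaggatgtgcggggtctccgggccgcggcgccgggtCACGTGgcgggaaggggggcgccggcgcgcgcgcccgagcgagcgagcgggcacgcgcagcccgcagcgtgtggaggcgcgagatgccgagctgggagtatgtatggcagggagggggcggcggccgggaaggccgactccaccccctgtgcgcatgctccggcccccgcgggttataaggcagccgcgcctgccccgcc
Slc2a1, chr4:119108495-119108744: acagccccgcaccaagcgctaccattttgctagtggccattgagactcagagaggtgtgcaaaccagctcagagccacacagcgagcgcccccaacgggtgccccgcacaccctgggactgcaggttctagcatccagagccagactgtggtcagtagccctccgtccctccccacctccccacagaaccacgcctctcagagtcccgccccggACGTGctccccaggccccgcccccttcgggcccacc
In Slc16a1 the core lies in a palindrome, so both strands match, beginning 200 bases before the start, and in Slc2a1 it begins 36 bases before it. Of the 32851 upstream windows of this length in the table, 16.57% hold ACGTG. The window of Slc16a3 also holds it, 27 and 14 bases before the start, and that of Slc16a4 does not. The shares over all windows are not matched for base content. G and C make up 76.4% of the Slc16a1 window and 66.4% of the Slc2a1 window, against a median of 52.4%. A forkhead core, searched as TAAACA on both strands because Foxf2 is a forkhead factor, was in neither window and in 12.03% of all windows, and it was also not in the windows of Slc16a3 and Slc16a4. These are matches of letters, and the arrays do not measure binding.

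The deposited MAS5 intensities are linear and were scaled by the authors to a common trimmed mean. Median intensity was 24.3 to 25.5 on the mutant arrays and 23.1 to 23.6 on the wt arrays. The brighter Foxf2 probe set read 3.31 to 8.06 in mutant brains and 13.8 to 24.4 in wt brains, without overlap, near the floor of the array. Neuronal markers such as Tubb3 and Stmn2 read brightly on every array, as the tissue label implies. Skeletal muscle transcripts stood apart on 1 array: Acta1 read 741 on mutant array 3 and 51.1 to 77.0 on the wt arrays. Pituitary transcripts stood apart on wt array 3, where growth hormone (Gh) read 1592, against 203 on mutant array 3 and 5.63 to 23.8 on the other 4 arrays.

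Among the carriers, Slc16a1 read lower in all 3 mutant brains, while Bsg, Slc16a7 and the brightest Slc2a1 probe set overlapped between the groups. Slc2a3 read lower on average on each of its 4 probe sets, and the 2 probe sets of Slc16a4 went apart. No carrier passed the threshold, an adjusted p of 0.05 in limma over the 27022 probe sets bright enough to be tested. That threshold was passed by 0.389% of all tested probe sets.

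**Figure D1:**
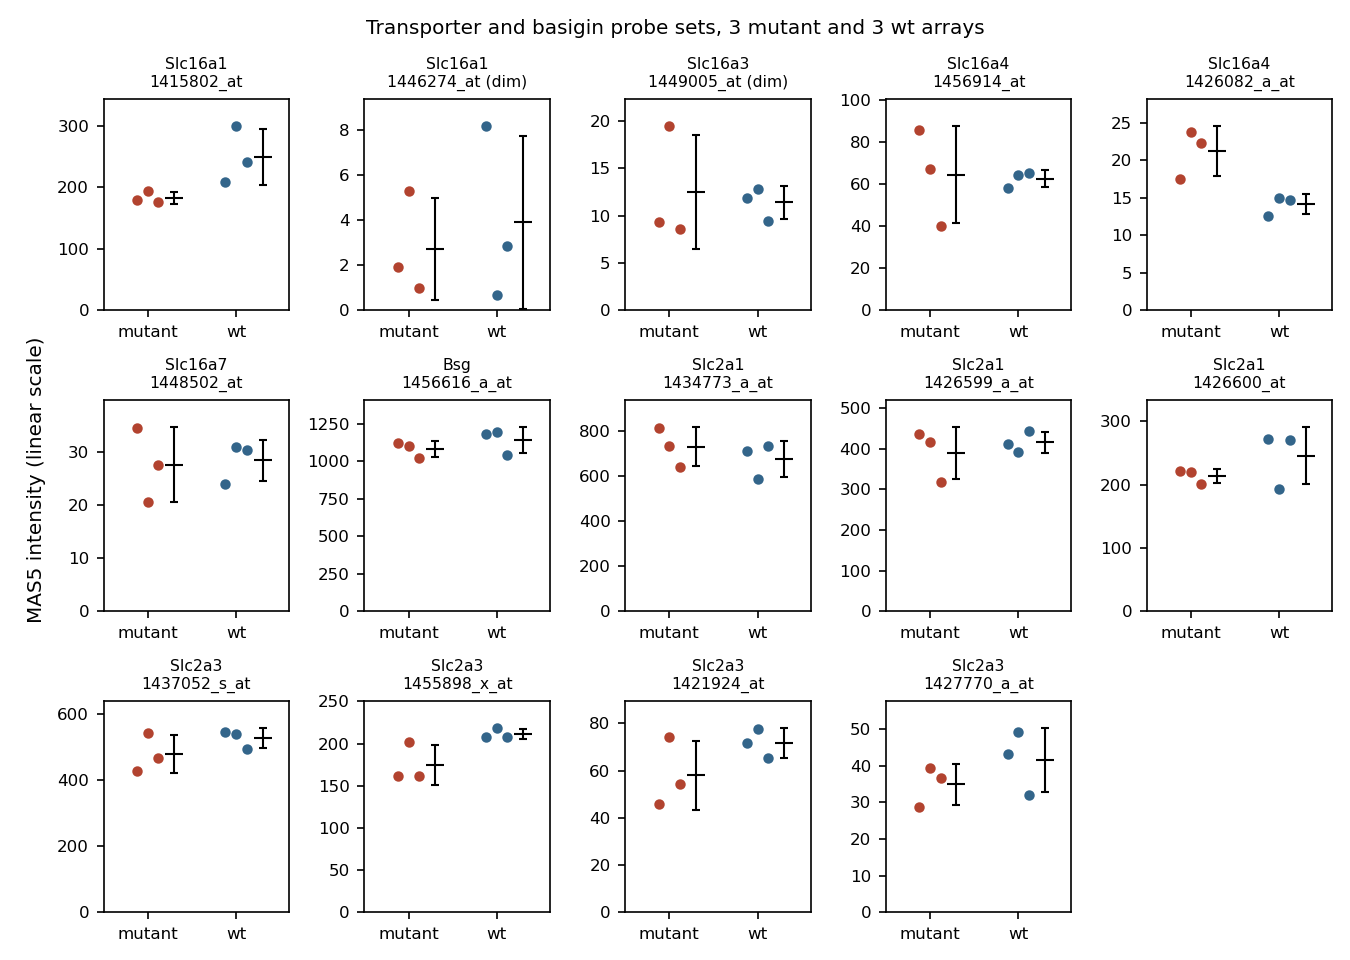
MAS5 intensity (linear scale, from 0) of each of the 14 probe sets on the 3 mutant arrays (red, arrays 1 to 3 from left to right) and the 3 wt arrays (blue), with the group mean and SD beside the points. "Dim" marks the 2 probe sets below the brightness filter. For Slc16a1 1415802_at all mutant points lie below all wt points, and for Bsg the groups overlap.

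Slc16a1 was read by 1415802_at, designed on its RefSeq transcript. It gave 179, 194 and 176 in the mutant brains, against 209, 299 and 241 in the wt brains. The mutant values lay close together and the wt values were spread more widely, with wt array 2 the highest, and the groups did not overlap. The means were 183 ± 9.74 in mutant and 249.6 ± 45.7 in wt brains (SD, n = 3 each). The log2 difference, mutant minus wt on log2(intensity + 16), was -0.40 ± 0.12 (SE), with a 95% interval from -0.67 to -0.14. The limma p was 0.00788 unadjusted and 0.196 after Benjamini-Hochberg adjustment over all tested probe sets, so Slc16a1 did not pass. By an exact permutation test (two-sided) p was 0.1, and 3 arrays against 3 cannot give less. Over the whole array, 4.02% of tested probe sets had an unadjusted p as small or smaller, and 1.12% had a difference as low or lower. Without wt array 2 the difference was -0.27, and without wt array 1 it was -0.52. The other Slc16a1 probe set, 1446274_at, was at the floor, with 1.92, 5.29 and 1.0 in mutant and 8.14, 0.695 and 2.85 in wt brains. It was too dim to be tested, so the lower reading of Slc16a1 rests on a single probe set.

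Bsg encodes basigin, the membrane glycoprotein that carries MCT1 to the surface. Its probe set 1456616_a_at gave 1125, 1099.5 and 1023 in mutant brains, against 1183, 1195 and 1039.5 in wt brains. Mutant arrays 1 and 2 lay inside the wt range and mutant array 3 just below it. Its log2 difference was -0.07 ± 0.07 (SE), with a 95% interval from -0.24 to 0.09 (adjusted p = 0.72 in limma). That interval, for the whole-brain level of Bsg, does not reach the -0.40 estimated for Slc16a1, whose own interval, -0.67 to -0.14, overlaps it. Whether the 2 changes differ is a separate question, and the within-array ratio of Slc16a1 to Bsg answers it. This log2 ratio was -2.55, -2.41 and -2.44 in mutant brains, against -2.41, -1.94 and -2.04 in wt brains. Mutant array 2 and wt array 1 almost coincided, the mutant value being the higher, so the groups overlapped. The change of Slc16a1 was lower than that of Bsg by 0.33 on the log2 scale (difference -0.33 ± 0.15, SE), with a 95% interval from -0.75 to 0.08 and an exact permutation p of 0.2.

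Slc16a7 encodes MCT2, the high-affinity carrier of neurons. Its single probe set 1448502_at gave 34.7, 20.6 and 27.7 in mutant brains, against 24.1, 31.0 and 30.5 in wt brains. The groups overlapped, with the highest and the lowest value both in the mutant. The log2 difference was -0.04, and its 95% interval ran from -0.39 to 0.32 (adjusted p = 0.942 in limma). Slc16a3 encodes MCT4, the lactate exporter of astrocytes and of glycolytic muscle. Its probe set 1449005_at was too dim to be tested, with 9.36, 19.4 and 8.65 in mutant brains, against 11.9, 12.8 and 9.49 in wt brains. Mutant array 2 was the highest and mutant array 3, which carried the muscle transcripts, the lowest of the 6. Its difference of 0.04 was -0.037 with quantile normalization, -0.017 with median centring and -0.13 without mutant array 2, so it has no direction here.

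Slc16a4 encodes MCT5, a family member whose substrate is less well known. The brighter probe set 1456914_at gave 86.0, 67.2 and 40.2 in mutant brains, against 58.2, 64.3 and 65.5 in wt brains. The mutant arrays lay on both sides of the wt arrays, and the log2 difference was -0.01 (95% interval -0.45 to 0.43). The dimmer probe set 1426082_a_at gave 17.5, 23.8 and 22.3 in mutant brains, against 12.6, 15.0 and 14.8 in wt brains. All mutant values were higher here, with a log2 difference of 0.30 (95% interval 0.01 to 0.60; adjusted p = 0.356 in limma). The offset weighs on a probe set this dim: the difference was 0.55 with an offset of 1 and 0.12 with an offset of 64. The probe sets of Slc16a4 thus gave different differences, and neither passed.

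Slc2a1 encodes GLUT1, the glucose carrier of the capillary endothelium and of astrocytes, and its 3 probe sets did not share a direction. The brightest, 1434773_a_at, gave 812, 735 and 640.0 in mutant brains, against 712, 586 and 731 in wt brains. The groups overlapped, and the log2 difference was 0.11 (95% interval -0.14 to 0.35; adjusted p = 0.715 in limma). Single arrays moved it to 0.0086 without wt array 2, the lowest of the 6, and to 0.19 without mutant array 3. The next, 1426599_a_at, gave 435, 415 and 318 in mutant brains, against 413, 392 and 443 in wt brains. Here mutant array 3 was the lowest and the other mutant arrays lay within the wt range, a log2 difference of -0.10 that became 0.03 without mutant array 3. The last, 1426600_at, gave 221, 220.1 and 202 in mutant brains, against 271, 193 and 271 in wt brains. Its difference was -0.17, with wt array 2 below all mutant arrays. The probe sets 1426599_a_at and 1426600_at were drawn from the same deposited sequence, so they are not independent readings.

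Slc2a3 encodes GLUT3, the glucose carrier of neurons, and all 4 of its probe sets averaged lower in the mutant. The brightest, 1437052_s_at, gave 426, 539.7 and 465 in mutant brains, against 545, 539 and 492 in wt brains. Mutant arrays 1 and 3 lay below the wt range and mutant array 2 inside it, and the log2 difference was -0.14 (95% interval -0.35 to 0.07; adjusted p = 0.538 in limma). The probe set 1455898_x_at, drawn from the same sequence, gave 161, 202 and 161 in mutant brains, against 208, 218 and 208 in wt brains. These groups did not overlap, with a log2 difference of -0.26 (95% interval -0.48 to -0.04; adjusted p = 0.287 in limma). In Affymetrix naming an x probe set holds probes that can match other transcripts. The probe set 1421924_at gave 45.7, 74.1 and 54.3 in mutant brains, against 71.6, 77.8 and 65.3 in wt brains. Its difference was also -0.26, with mutant array 2 inside the wt range. The dimmest, 1427770_a_at, gave 28.6, 39.4 and 36.6 in mutant brains, against 43.2, 49.1 and 31.9 in wt brains, a difference of -0.17. On all 4, mutant array 1 was the lowest and mutant array 2 the highest of the mutant arrays. Probe sets of 1 gene share their RNA, so this is not 4 independent decreases.

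**Figure D2:**
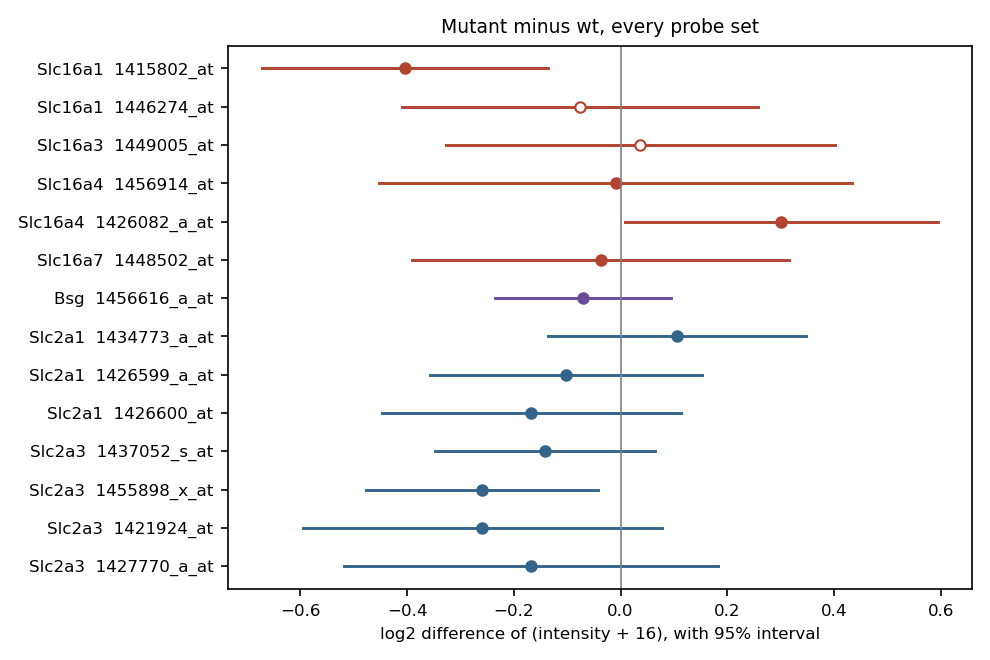
Log2 difference of (intensity + 16), mutant minus wt, for every probe set of the carriers and Bsg, with its 95% interval from limma. Monocarboxylate carriers are red, Bsg purple and glucose carriers blue, and open points are the 2 dim probe sets. The intervals of Slc16a1 1415802_at and Slc2a3 1455898_x_at lie below 0, that of Slc16a4 1426082_a_at lies above 0, and the others include 0.

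Of the 14 probe sets, 12 passed the brightness filter, from 6 genes. Of these 12, 10 averaged lower and 2 higher in the mutant, with a median log2 difference of -0.12, against -0.01 over all tested probe sets, whose quartiles were -0.11 and 0.11. Counting 1 probe set a gene, the median of the 7 was -0.04. By limma 0 of the 12 passed the adjusted threshold, and 3 had an unadjusted p under 0.05, Slc16a1, 1 probe set of Slc2a3 and 1 of Slc16a4. Those are also the 3 whose groups did not overlap, 25% of 12, where 20.2% of all tested probe sets did not overlap (9.38% lower and 10.9% higher in the mutant) and 13.6% had an unadjusted p under 0.05. A share of 3 in 12 is close to these backgrounds, and nothing is read from it about the carriers as a set.

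The change of Slc16a1 was set against that of each other gene by the same within-array log2 ratio, with the brightest probe set of each, in 6 comparisons. Of the 6, Slc16a3 was too dim to be tested, and nothing is read from its estimate of -0.44. Against the other 5 the estimates were all below 0, from -0.26 against Slc2a3 to -0.51 against Slc2a1. The ratio of Slc16a1 to Slc2a1 was -2.08, -1.84 and -1.78 in mutant brains, against -1.69, -0.935 and -1.54 in wt brains. These groups did not overlap, with a 95% interval of the difference from -1.20 to 0.18 and an exact permutation p of 0.1, the smallest possible. Wt array 2, the highest for Slc16a1 and the lowest for Slc2a1, moves this difference most: it was -0.28 without that array. Against Slc16a4, Slc16a7, Bsg and Slc2a3 the groups overlapped, with exact permutation p from 0.2 to 0.3. Adjusted over the 6 comparisons every exact permutation p was 0.3, and each 95% interval included 0. With 3 arrays a group these data do not separate the change of Slc16a1 from those of the other carriers or of Bsg, and they do not show that the changes are alike.

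**Figure D3:**
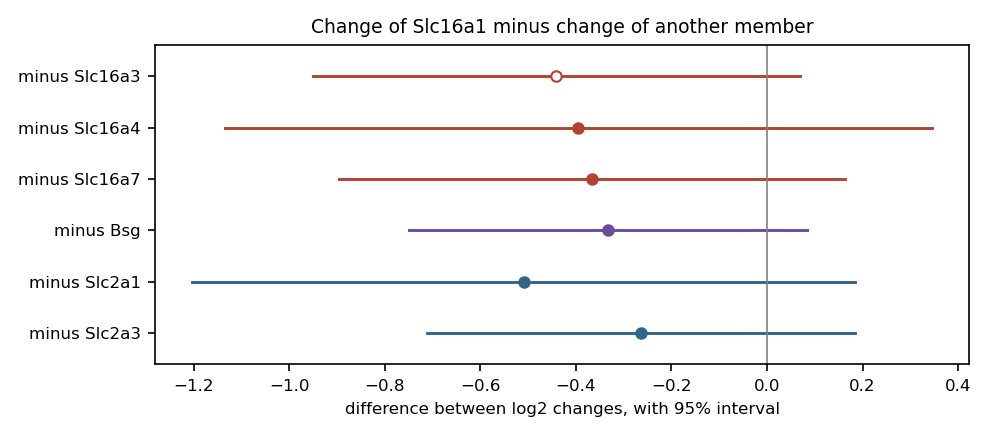
Change of Slc16a1 (mutant minus wt, log2) minus the change of each other gene, computed within arrays, with its 95% interval from the pooled SD of the 6 arrays. Colours are by role: red for monocarboxylate carriers, purple for Bsg and blue for glucose carriers. The open point is Slc16a3, which was too dim to be tested. The other 5 estimates lie below 0, between -0.26 and -0.51, and all 6 intervals include 0.

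Endothelial markers were set beside Slc16a1. Of 12 such markers tested, 0 passed in limma, 9 averaged lower and 3 higher (10 and 2 with median centring), and 3 had an unadjusted p under 0.05, all lower, where 13.6% of all tested probe sets did. Those 3 were Slco1c1, a thyroid hormone carrier of brain capillaries (log2 difference -0.75), Cldn5, the claudin of endothelial tight junctions (-0.43), and Kdr, a VEGF receptor (-0.41). The other 6 that averaged lower were Tek (-0.26), Egfl7 (-0.17), Flt1 (-0.16), Esam (-0.12), Abcb1a (-0.09) and Tie1, which was at 0 within rounding. The groups did not overlap for Slco1c1, Cldn5, Kdr, Tek, Esam and, narrowly, Egfl7, all lower in the mutant. Of all tested probe sets 20.2% did not overlap, and 9.38% did so with the mutant lower. Other probe sets did not all go the same way. Abcb1a had 0.29 on its other, without overlap, and Egfl7 had 0.18, -0.10 and 0.05. Flt1 had -0.02, -0.07 and -0.14 on its others. The 3 that averaged higher were Pecam1 at 0.02, which turned to -0.034 with median centring, Emcn at 0.16 and Cdh5 at 0.29. The median of the list was -0.14. Slco1c1 and Cldn5 passed with an offset of 1 (adjusted p = 0.0427 and 0.0468 in limma). Summed over the list, intensity was 1097 to 1241 in mutant brains and 1472 to 1553 in wt brains. Without Slco1c1 and Cldn5 the sum of the other 10, chosen after their values were seen, was 667 to 693 in mutant and 724 to 775 in wt brains. Those 10 still hold Kdr, with 131, 106 and 97.7 in mutant brains, against 160, 154 and 145 in wt brains. A sum without Kdr was not taken, so nothing is read from this sum about the remaining markers. The part of these markers in the Slc16a1 result was not tested. Slc2a1, carried by the same endothelium, averaged higher on its brightest probe set and lower on the others. Of 7 pericyte markers 0 passed in limma and 2 had an unadjusted p under 0.05, again against 13.6% of all tested probe sets. These were Atp13a5 at -0.51 (-0.55 on its other probe set) and Pdgfrb at -0.25 (-0.18 on its other). Rgs5 had -0.33, with overlapping groups, and -0.27, -0.26 and -0.08 on its other probe sets. The rest overlapped on their brightest probe sets. They were Cspg4 at -0.15 (0.17 on its other), Abcc9 at -0.08 (-0.29 and -0.24), Kcnj8 at -0.05 and Notch3 at 0.21 (-0.20). In the pericyte list 6 averaged lower and 1 higher, with a median of -0.15. The summed level of the pericyte markers overlapped (939.9 to 1080.1 in mutant, 996 to 1349 in wt).

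**Figure D4:**
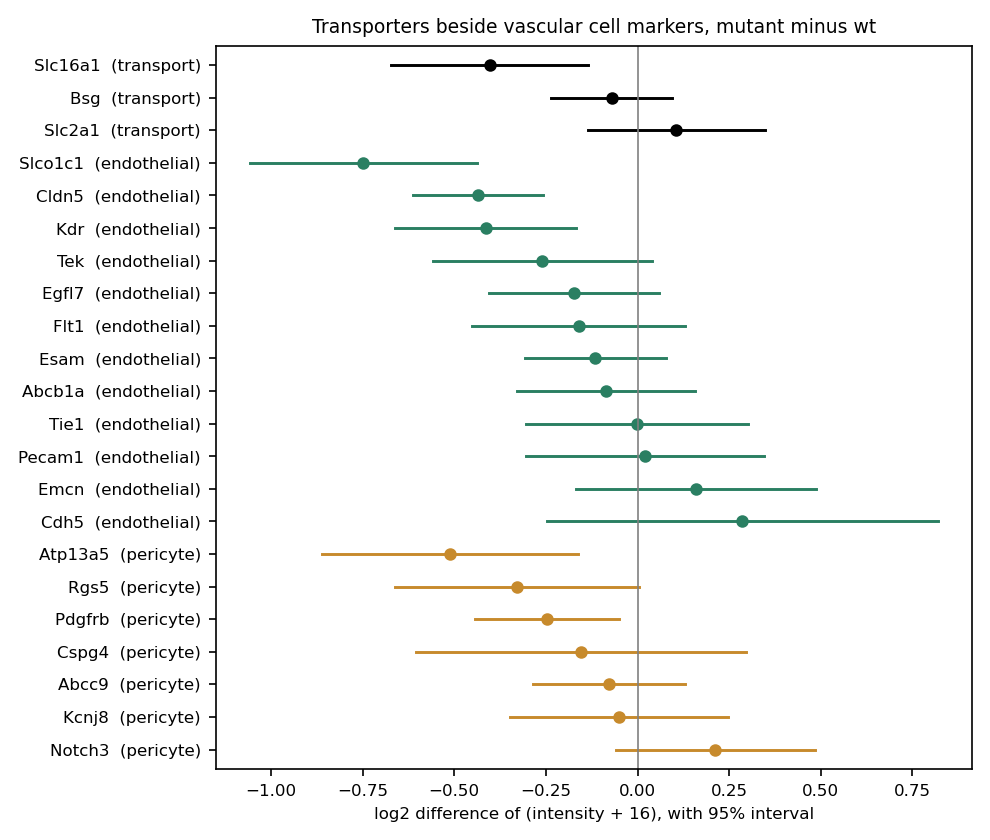
Log2 difference of (intensity + 16), mutant minus wt, with 95% intervals from limma, for Slc16a1, Bsg and Slc2a1 (black), 12 endothelial markers (green) and 7 pericyte markers (ochre), each by its brightest probe set. Slc16a1 at -0.40 lies beside Cldn5 at -0.43 and Kdr at -0.41. Bsg lies at -0.07 and Slc2a1 at 0.11, and the 12 endothelial markers lie on both sides of 0.

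The summed markers of other cells overlapped between the groups, except those of the choroid plexus. Neuronal markers summed to 12191 to 12694 in mutant and 12291 to 12622 in wt brains, and 0 of 6 passed in limma. The sums use only the brightest probe sets. Map2 had -0.19 on its brightest and -0.25, -0.44 (without overlap) and -0.24 on the others. Astrocyte and radial glia markers, with 0 of 6 past the threshold, summed to 5780.3 to 6457 in mutant and 5374 to 6167 in wt brains. Slc1a3 had 0.19 on its brightest probe set. Its other tested probe sets had 0.34 and 0.31, both without overlap, and -0.25 with overlap. Erythroid markers, from cells that also carry GLUT1 and MCT1, summed to 79.5 to 323 in mutant and 149 to 242 in wt brains, with 0 of 3 past the threshold. Choroid plexus markers summed to 6750.3 to 7044 in mutant and 5959.7 to 6634 in wt brains, with 0 of 4 past the threshold and a median difference of 0.12. Nearly all of that sum is transthyretin (Ttr), with 6420.3, 6732 and 6496 in mutant and 6146, 6321 and 5741 in wt brains. By their brightest probe sets Folr1, Clic6 and Otx2 each overlapped between the groups. The other Clic6 probe set had a log2 difference of 0.31, without overlap. The remaining Ttr probe sets had 0.16 and 0.37, both without overlap, and 0.16 with overlap. Muscle markers summed to 81.3 to 872 in mutant and 60.4 to 83.1 in wt brains, the highest being mutant array 3. Microglia, oligodendrocyte and pituitary markers, with 6, 5 and 2 tested, had 0 past the threshold, and their sums overlapped between the groups. Of the 6 microglia markers 5 averaged higher (4 with median centring). Lyz2, a lysozyme gene, gave 33.5, 35.2 and 38.8 in mutant brains, against 22.9, 22.3 and 23.7 in wt brains. These groups did not overlap (log2 difference 0.41, adjusted p = 0.196 in limma). C1qb, a complement gene, had 0.20 on its brightest probe set, and 0.45 and 0.62 on the others.

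The relatives of these carriers, taken from lists chosen with earlier results of these data known, had 0 of 5 tested genes of the SLC16 family past the threshold in limma. All 5 averaged higher in the mutant, with a median of 0.22, though 1 of them turned lower with median centring and with quantile normalization. Slc16a12, whose human product carries creatine, gave 22.1, 30.4 and 34.9 in mutant brains, against 9.27, 14.9 and 20.6 in wt brains (log2 difference 0.55, adjusted p = 0.231). The offset weighs on this dim gene too, with 0.96 at an offset of 1 and 0.24 at an offset of 64. Slc16a9, whose human product exports carnitine, gave 36.4, 44.9 and 53.0 in mutant brains, against 25.9, 36.1 and 22.8 in wt brains. Its log2 difference was 0.46 on this brightest probe set, adjusted p = 0.264 in limma, and 0.09 and -0.01 on the others. Both are dim genes whose groups did not overlap on these probe sets, Slc16a9 only narrowly, where 20.2% of all tested probe sets did not overlap. By these probe sets they averaged in the opposite direction to Slc16a1. The sodium-coupled carriers Slc5a8 and Slc5a12 were too dim to be tested. Among the 7 tested genes of other glucose carriers 0 passed and 6 averaged higher (4 with median centring), with a median of 0.10. The insulin-responsive carrier gene Slc2a4 had the greatest difference, 0.41 (adjusted p = 0.362), with its highest value, 46.4, on the array with the muscle transcripts. It was 0.24 without that array, 0.62 and 0.20 with offsets of 1 and 64, and 0.07 on the other Slc2a4 probe set. Slc2a12 followed at 0.13 on both of its probe sets.

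Basigin has 2 relatives that can also escort monocarboxylate carriers, Emb (embigin) and Nptn (neuroplastin). Nptn gave 1193, 1463 and 1363 in mutant brains, against 819, 986 and 994 in wt brains. Every mutant array lay above every wt array. The log2 difference was 0.51 ± 0.10 (SE), with an adjusted p of 0.0749 in limma, so it did not pass. Its other probe set, at a lower intensity, had a difference of 0.26, also without overlap. Emb had 0.04 on its brightest probe set, with the sign turned to -0.012 by median centring, and -0.17 on the next. Of the chaperones, the 2 tested relatives averaged higher by their brightest probe sets and Bsg lower, none of them past the threshold.

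Genes of enzymes that handle what the carriers deliver differed little by their brightest probe sets, and some of their other probe sets differed more. Of 8 genes of lactate and pyruvate handling 0 passed in limma, 4 averaged higher and 4 lower (3 and 5 with median centring), with a median of -0.01. Pdk4 and Pdk2, kinases that hold back pyruvate dehydrogenase, had 0.19 and 0.13, and the lactate dehydrogenase genes Ldha and Ldhb both had -0.09. The other 3 probe sets of Ldhb had -0.26 (without overlap), -0.16 and -0.18. Pdk1 had -0.06 on its brightest probe set and 0.06, -0.54 and -0.25 on the others, all with overlap. Of 3 genes whose enzymes add or remove the phosphate of glucose-6-phosphate 0 passed. G6pc3, a glucose-6-phosphatase, which removes it, had -0.22, and the hexokinase gene Hk2 had -0.04.

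Ketone body genes are of interest beside Slc16a1 because MCT1 carries ketone bodies. By their brightest probe sets 0 of 3 passed in limma. Bdh1, hydroxybutyrate dehydrogenase, gave 659, 677 and 684 in mutant brains, against 765, 842 and 732 in wt brains. The groups did not overlap (log2 difference -0.20, adjusted p = 0.243), and its other probe set had 0.03. Oxct1 encodes the enzyme that activates acetoacetate for oxidation, and its 4 probe sets did not give a common value. The brightest had 0.20, and the probe set 1436750_a_at passed the threshold. This probe set gave 826, 1064 and 1000.0 in mutant brains, against 433, 607 and 578 in wt brains. It rose by 0.82 ± 0.13 (SE) on the log2 scale (adjusted p = 0.0482 in limma), with no overlap. The remaining probe sets had -0.07 and 0.55, the second of them an x probe set whose groups also did not overlap. Only 1436750_a_at passed, and it was singled out after its value was seen. Its adjusted p ran from 0.00756 to 0.199 over the 15 alternatives run, and it was no longer past the threshold in 11 of them, among them each array left out in turn.

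Likeness to Slc16a1 was measured as the root mean square distance between log2 profiles over the 6 arrays, each centred on its own mean. The 5 named genes with the smallest distance were Kazn, Tox4, Ercc1, A930005H10Rik and Slc22a8, from 0.06 to 0.08 log2 units. Kazn, which encodes the cytoskeletal adaptor kazrin, gave 65.2, 66.1 and 65.2 in mutant brains, against 80.3, 108.9 and 84.2 in wt brains. Slc22a8 encodes an organic anion carrier and gave 48.2, 58.1 and 55.9 in mutant brains, against 71.2, 99.2 and 83.5 in wt brains. In both, as in Slc16a1, wt array 2 was the highest of the 6, a likeness that the choice by distance builds in. None of the 5 passed the threshold in limma. They were picked from 23219 candidate probe sets over only 6 arrays, and 11 of these candidates lay within 0.1 log2 units. Among the carriers and Bsg, Slc2a3 and Bsg lay nearest to Slc16a1, at 0.21 and 0.22 log2 units, and Slc2a1 farthest, at 0.36. Of the candidate probe sets, 11.8% lay as near to Slc16a1 as Slc2a3 did, 18.7% as near as Bsg and 81.9% as near as Slc2a1.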

How the data were processed

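Total RNA from whole brains was biotin-labelled by the Affymetrix procedure, per the labels' protocols, and the deposited intensities come from MAS5, per the submitters' processing notes (version and genome build not given in the sources used here). The deposited intensity values are linear and already scaled: the mean after trimming 2% at each end was 100.0 on every array, so they were not normalized again. The 64 control probe sets were left out. Gene names came from the platform annotation, and all 14 member probe sets matched RefSeq by Entrez gene under the same symbol.

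Values were analysed as log2(intensity + 16) in R 4.3.3 with limma 3.58.1 (lmFit, eBayes with trend), two-sided. Benjamini-Hochberg adjustment covered the 27022 probe sets at or above the 40th percentile of mean level (intensity about 13.2). Fold changes on this scale understate dim genes. A gene was represented by its brightest probe set. The others are given beside it for all members, and for part of the list genes. Ratios between genes were compared with exact permutation tests over arrays. The members, lists and tests were chosen with earlier results of these data known. All members were named; of each pathway list, genes past the threshold or the 2 with the greatest differences. Marker genes and further list genes were picked as examples with their values known. Recovery of known changes by the fit was tested on simulated data. The number of arrays limits precision.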

Additional observations from a re-analysis of the deposited data

How the results depend on the processing

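Alternatives changed the offset, the filter, the scaling, the variance model, the block and the probe sets, and left out each array in turn. In all 16, 0 carrier or Bsg probe sets passed, and the Slc16a1 difference stayed between -0.52 and -0.27 (adjusted p 0.114 to 0.412), a range that leaving out single arrays spans. The 6 differences between the change of Slc16a1 and another stayed below 0 in all 9 alternatives run for each, over -0.57 to -0.31 (Slc16a3), -0.61 to -0.19 (Slc16a4), -0.53 to -0.24 (Slc16a7), -0.47 to -0.24 (Bsg), -0.66 to -0.28 (Slc2a1) and -0.40 to -0.15 (Slc2a3). An alternative with another tested Slc16a1 probe set could not be run, as there was none.

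Signs turned for differences near 0, and the cause was not tested. Slc16a4 1456914_at gave 0.0046 with an offset of 64 and 0.024 with array weights, and from -0.20 to 0.23 with single arrays left out. Slc16a3 gave -0.037 with quantile normalization and -0.017 with median centring, and from -0.13 to 0.13 with single arrays left out. Emb gave -0.012 with median centring, and from -0.017 to 0.15 with single arrays left out. Pecam1 gave -0.034 with median centring, and from -0.097 to 0.14 with single arrays left out. With single arrays left out, Slc16a7 ran from -0.15 to 0.083, Slc2a1 1426599_a_at from -0.19 to 0.031 and Slc16a1 1446274_at from -0.19 to 0.072.

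The count of probe sets past the threshold over the array, 105 by limma, was 181 and 64 with offsets of 1 and 64, 52 without a filter, 167 with the filter at the 60th percentile, 56 with median centring, 0 without the variance trend, 12 with 1 probe set per gene and 0 to 34 with single arrays left out. The replicate block gave 220, with Nptn (adjusted p = 0.0172) among those past the threshold. The labels give no reason to pair equal numbers, and correlations of their deviations were 0.186, 0.134 and 0.0917, each array correlating best with its own number, which is a hint from the data and not from the design. Slco1c1 passed with an offset of 1, the stricter filter and the replicate block, and Cldn5 with the first 2 of these. The alternatives for genes of the lists were added after the data were seen. MAS5 signals near the floor limit Slc16a3 and 1446274_at.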
